A study of Danio rerio with 20 samples.

Results

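The transcriptome of skeletal muscle was compared between 3-year-old and 1-year-old male zebrafish (Danio rerio) that had all been placed in a swim tunnel, a device that makes fish swim into a stream of water. The comparison rests on 10 of the 20 libraries in the study, 5 from 3-year-old exercised fish (3y_swim) and 5 from 1-year-old exercised fish (1y_swim), chosen by their labels of age and perturbation. All fish were of the strain given as AB JxTu, and no transgene, knockout or drug is named for any group. The other 10 libraries, from muscle of fish of the same 2 ages with no perturbation (1y_control and 3y_control, 5 each), serve here only to show where the age difference among exercised fish departs from that among resting fish. The labels do not give the swimming regime, the time of day, the muscle sampled or how fish were paired, so a p-value here reflects the scatter among these libraries, which may be technical. Library numbers follow the order of the sample records and pair nothing across groups.

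Swimming muscle draws its ATP from the oxidation of fatty acids and pyruvate in mitochondria at sustained speeds and from glycolysis in bursts. Mitochondria carry a small genome of their own that encodes core subunits of the respiratory chain, while the remaining subunits, the ribosomes that translate these transcripts and the machinery that imports and folds proteins are encoded in the nucleus. In mammals, endurance exercise is known to raise the mitochondrial content of muscle, and ageing muscle is known to lose respiratory capacity and to accumulate immune cells. The circadian clock of fish muscle is a loop of transcriptional activators and of period and cryptochrome repressors that are reset by light.

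Exercised libraries held 32025422 to 44639439 counts, and 17025 of the 32105 genes in the table were tested. A list of 18 muscle identity genes took 21.6% to 22.8% of counts in 1y_swim and 22.9% to 25.1% in 3y_swim, and none of them had 0 counts throughout the exercised libraries. Markers of other tissues set some libraries apart. The summed level of epidermis markers was 4178 and 5013 CPM (a gene's counts relative to the scaled library size) in 3y_swim 1 and 3 and 1107 to 1841 CPM in the other 3 libraries of that group, against 1026 to 1606 CPM in 1y_swim. Exocrine pancreas markers summed to 294 and 135 CPM in 1y_swim 2 and 4 and to 47.2 to 99.1 CPM in the other 3, against 4.32 to 20.6 CPM in 3y_swim. Adipocyte markers summed to 1056 to 1618 CPM in 1y_swim and 781.8 to 908.5 CPM in 3y_swim. For erythrocyte markers the sums were 502.9 to 1241 CPM and 302.2 to 465.3 CPM. Of these lists 2 of 20 and 3 of 17 genes tested were called lower, against 10.1% over all genes. The part of fat and blood in the results on other genes, fatty acid genes included, was not tested. In bulk tissue, fewer cells of a type and less RNA per cell cannot be told apart.

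Between the ages, 1293 genes were higher and 1717 lower in 3y_swim by the edgeR quasi-likelihood test with a Benjamini-Hochberg adjusted p under 0.05. These 3010 genes are 17.7% of all genes tested, with 7.59% higher and 10.1% lower, and the median log2 change over all genes was 0.035. Of them 764 were higher and 725 lower by at least 1 on the log2 scale. For 2190 genes (12.9% of those tested, 5.43% higher and 7.43% lower) the 5 libraries of one age lay wholly above or below the 5 of the other, and 1868 of these were among the called genes. This lack of overlap was a condition for naming many of the single genes below. For those genes it was fixed in advance and adds no support. In resting fish the same fit called 203 genes between the ages, 1.19% of all tested, with 0.658% higher and 0.535% lower (2701 genes at an unadjusted p under 0.05, against 5378 in exercised fish). That count was 56 to 403 with 1 library left out (56 without 1y_control 1 and 403 without 3y_control 1) and 730 with DESeq2. Without 3y_swim 1 and 3 the count in exercised fish was 1314, and without 1y_swim 2 and 4 it was 1724. With library totals in place of normalization factors, 2883 genes were higher and 931 lower, and the median over all genes was 0.29.

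Mitochondrial genes were lower in the older exercised fish. The 13 protein-coding genes of the mitochondrial genome took 14.5%, 14.9%, 15.8%, 13.1% and 14.6% of all counts in the libraries of 1y_swim and 9.20%, 9.66%, 9.81%, 7.98% and 9.75% in those of 3y_swim. The groups did not overlap. The means were 14.6% ± 0.97 and 9.28% ± 0.77 (SD, n = 5), a difference of -5.31 percentage points (two-sided exact permutation test, p = 0.00794, the smallest that 5 against 5 libraries can give). Resting fish stood between them, with 13% ± 2.1 at 1 year and 11.6% ± 2.2 at 3 years.

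All 13 mitochondrially encoded genes were called lower, with log2 changes of -1.38 to -0.78, and for 11 of them the libraries of the ages did not overlap. MT-ND1, which encodes a core subunit of complex I, the NADH dehydrogenase that admits electrons to the respiratory chain, stood at 5693, 6320, 6702, 5820 and 6558 CPM in 1y_swim and at 2093, 2533, 2545, 2020 and 2719 CPM in 3y_swim. On these scaled values every 1-year library was more than 2 times as high as every 3-year library. The fitted difference was 2.61-fold (log2 change -1.38 ± 0.17, SE of the fit as for all changes below, edgeR adjusted p = 0.000102). Its size depended on scaling and libraries, with log2 changes of -1.44 to -1.12 over the 31 alternatives. MT-CO2, a catalytic-core subunit of cytochrome c oxidase, was lower by 1.14 ± 0.25 on the log2 scale, MT-CYB of complex III by 0.92 ± 0.16 and MT-ATP6 of the ATP synthase by 0.95 ± 0.20. Group means were highest in 1y_swim for all 13 genes and lowest in 3y_swim for 12. Over the alternatives 9 to 13 of the genes were called lower, with 9 without 3y_swim 1 and 3. The gene mt-nd4l did not pass in 12 of 31 alternatives, MT-ND6 in 4, MT-CO3 in 2, and MT-CO2 and MT-ND5 in 1 each.

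**Figure D1:**
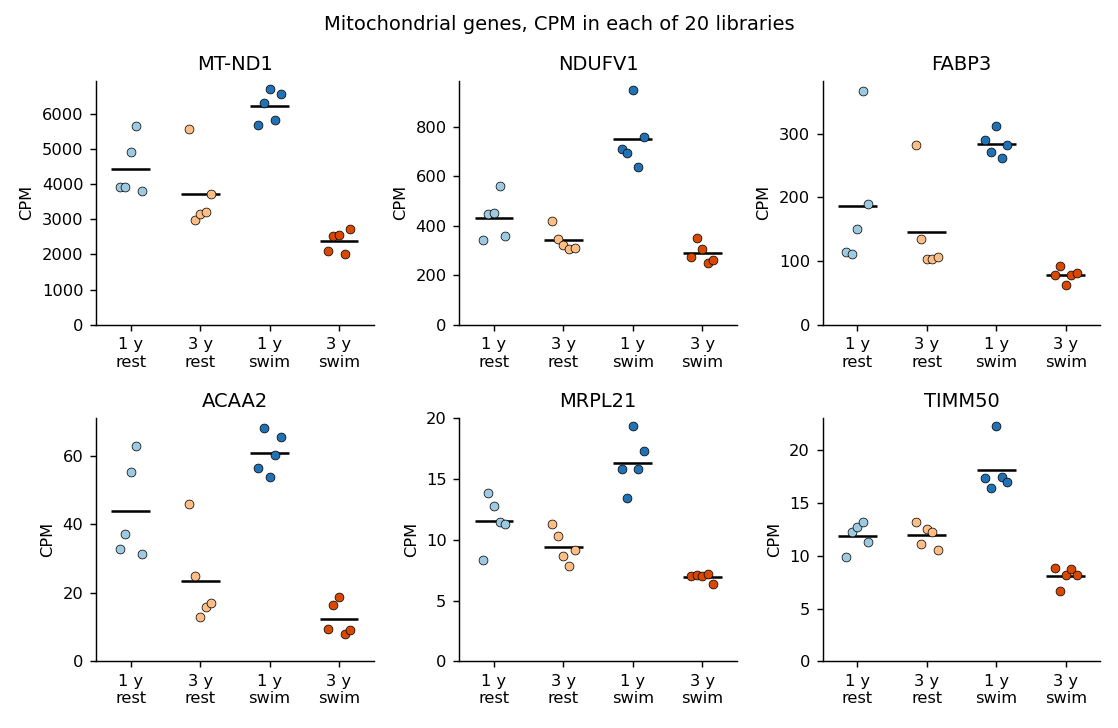
Expression in CPM (linear axis from 0) of 6 mitochondrial and fuel-use genes in the 20 libraries, with 1 point per library and a bar at the mean of 5. In exercised fish every 1-year library (dark blue) lies above every 3-year library (dark orange) for each gene, while the resting groups (pale) lie between or overlap; MT-ND1 averaged 6218 CPM in 1y_swim and 2382 CPM in 3y_swim.

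The nuclear genes of the respiratory chain showed the same direction. Of 40 nuclear complex I genes tested, 31 were called lower and none higher (median log2 change -0.89), and all 40 were negative. NDUFV1, which encodes the subunit that binds NADH, stood at 710, 694, 951, 639 and 760 CPM in 1y_swim and 274, 353, 304, 251 and 261 CPM in 3y_swim. The lowest 1-year library was well above the highest 3-year library. The difference was 2.60-fold (-1.38 ± 0.16, edgeR adjusted p = 7.59e-05). NDUFS1, the largest subunit of the electron-entry module, and NDUFS8, which carries iron-sulphur clusters, were lower by 1.28 ± 0.17 and 1.1 ± 0.14 on the log2 scale.

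Of 45 genes of complexes II to V and cytochrome c, 34 were called lower (median -0.82). UQCRC1 and CYC1 of complex III changed by -1.21 ± 0.17 and -1.08 ± 0.16, and cycsb, a cytochrome c gene, by -1.28 ± 0.19. The succinate dehydrogenase gene SDHA and the ATP synthase gene ATP5F1B, named after their values were seen, were lower by 0.99 ± 0.16 and 0.93 ± 0.15. The exception among the called genes was COX4I2, also named after its value was seen, an alternative subunit of cytochrome c oxidase known in mammals to respond to low oxygen. It stood at 5.67, 6.21, 11.5, 4.17 and 4.28 CPM in 1y_swim and 13.8, 11.8, 14.6, 18.1 and 10.4 CPM in 3y_swim. Only 1y_swim 3 reached into the 3-year range, and the gene was higher by 1.12 ± 0.25 (edgeR adjusted p = 0.00530). Without 3y_swim 1 and 3 the called counts were 22 of the complex I list and 20 of the other complexes, and without 1y_swim 2 and 3, the libraries with the lowest normalization factors, 20 and 19. Medians were negative in all 31 alternatives.

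Of 73 mitochondrial ribosomal protein genes 61 were called lower and none higher (median -0.83), whereas none of 79 cytosolic ribosomal protein genes was called in either direction (median 0.11). MRPL21, of the large mitochondrial ribosomal subunit, stood at 15.8, 13.4, 19.4, 15.8 and 17.3 CPM in 1y_swim and at 6.99, 7.13, 7.04, 7.20 and 6.37 CPM in 3y_swim. The 3-year libraries were nearly alike, and all lay below the lowest 1-year library (2.35-fold, -1.23 ± 0.14, edgeR adjusted p = 7.00e-05). Some cytosolic ribosomal protein genes passed in alternatives, with 31 of the 79 called higher without 1y_swim 2 and 3 and 28 with library totals.

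Of 56 genes for mitochondrial chaperones, proteases and protein import 44 were called lower, none was called higher and all 56 had negative log2 changes (median -0.86). HSPA9, the matrix HSP70 that pulls imported proteins through the inner membrane, stood at 234, 224, 222, 241 and 244 CPM in 1y_swim and 96.8, 101, 85.3, 83.7 and 110 CPM in 3y_swim. Both groups were tight, and the difference of 2.44-fold (-1.29 ± 0.13) had an edgeR adjusted p of 3.49e-05. TIMM50, a receptor of the inner membrane translocase, stood at 17.3, 16.4, 22.3, 17.5 and 17.0 CPM in 1y_swim and 8.85, 6.63, 8.19, 8.73 and 8.18 CPM in 3y_swim. Again no library of one age reached the range of the other (-1.16 ± 0.12, edgeR adjusted p = 3.49e-05), and the resting groups stood at 11.9 ± 1.3 CPM at 1 year and 11.9 ± 1.1 CPM at 3 years. The chaperonin pair HSPD1 and HSPE1, the latter named after its value was seen, were lower by 1.13 ± 0.13 and 1.17 ± 0.16. CHCHD4, which oxidizes imported proteins in the intermembrane space, was lower by 1.3 ± 0.14.

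**Figure D2:**
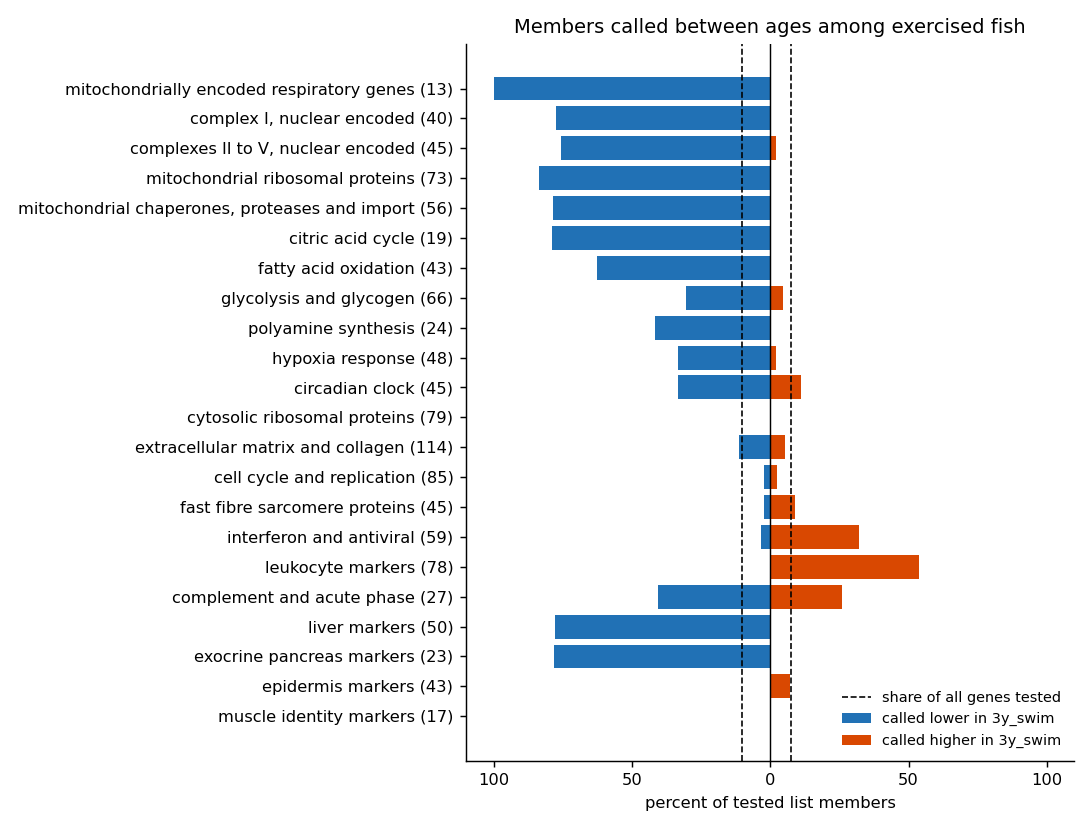
Percent of the tested members of each gene list (number in brackets) called lower (blue, to the left) or higher (orange, to the right) in 3y_swim against 1y_swim at an edgeR adjusted p under 0.05; dashed lines mark the shares over all genes, 10.1% lower and 7.59% higher. The mitochondrial lists reach far beyond the left line, for example 61 of 73 mitochondrial ribosomal protein genes, and leukocyte markers beyond the right line, with 42 of 78.

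In the citric acid cycle 15 of 19 genes were called lower and none higher (median -0.65), 9 of them with library totals. Citrate synthase, CS, often taken as an index of mitochondrial content and named here after its value was seen, stood at 883, 850, 894, 915 and 975 CPM in 1y_swim and 653, 582, 526, 540 and 512 CPM in 3y_swim. The libraries did not overlap (1.61-fold lower, -0.68 ± 0.14, edgeR adjusted p = 0.00229), but the gene did not pass with library totals. The isocitrate dehydrogenase gene IDH3A was lower by 1.16 ± 0.16. Among genes of mitochondrial biogenesis and dynamics 10 of 29 were called lower and none higher (median -0.38). They included the fission GTPase DNM1L (-0.94 ± 0.14) and TWNK, the helicase that unwinds mitochondrial DNA (-0.88 ± 0.23). The coactivator PPARGC1A, a regulator of mitochondrial biogenesis in mammals, did not pass (log2 change -0.41 ± 0.87, edgeR adjusted p = 0.788). With library totals 3 of the biogenesis genes were called lower and 4 higher, without 3y_swim 1 and 3 the lower ones numbered 3, and without 1y_swim 5 or without 3y_swim 3 the number was 6.

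Fatty acid oxidation had the lowest median of the energy lists, at -1.13, with 27 of 43 genes called lower and none higher. ACAA2, the thiolase of the last step of each mitochondrial oxidation cycle, stood at 56.4, 68.2, 53.9, 60.3 and 65.4 CPM in 1y_swim and 9.60, 16.5, 19.0, 8.03 and 9.26 CPM in 3y_swim. The ranges were far apart (4.88-fold, -2.29 ± 0.33, edgeR adjusted p = 0.000261). CPT2, which releases fatty acids from carnitine inside the mitochondrion, and HADHA, the trifunctional enzyme, were lower by 2.08 ± 0.30 and 1.62 ± 0.23. FABP3, a carrier of fatty acids in the cytosol, named after its value was seen, stood at 290, 271, 312, 261 and 282 CPM in 1y_swim and 78.1, 92.7, 62.6, 77.3 and 81.9 CPM in 3y_swim. It was 3.61-fold lower (-1.85 ± 0.32, edgeR adjusted p = 0.000813), with no overlap of the groups. DGAT1 (ENSDARG00000103503), which stores fatty acids as triglyceride, was also lower, by 1.77 ± 0.37.

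Sugar metabolism was mixed. Of 66 genes of glycolysis and glycogen 20 were called lower and 3 higher (median -0.54). SLC2A12, a glucose transporter, stood at 11.9, 32.9, 36.9, 31.9 and 46.1 CPM in 1y_swim and 6.43, 7.35, 5.96, 8.26 and 8.72 CPM in 3y_swim. The library 1y_swim 1 was low for its group but above every 3-year library (4.35-fold, -2.12 ± 0.27, edgeR adjusted p = 0.000125). PFKFB2, which sets the level of the activator of phosphofructokinase, and the lactate and pyruvate transporter SLC16A1 (ENSDARG00000016963) were lower by 1.64 ± 0.27 and 1.25 ± 0.22. The list's most negative members, GYS2 and PYGL (-3.24 ± 0.83 and -2.95 ± 0.84, named after their values were seen), are the liver forms of glycogen synthase and phosphorylase, and liver markers were lower in the same libraries, as given below. The part of those markers in this result was not tested. Without 3y_swim 1 and 3 the list had 9 lower genes, and with library totals 11.

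Of 78 leukocyte marker genes tested, from 94 in the list, 42 were called higher and none lower (median 1.16), and 73 were positive. Their summed level was 262 to 468 CPM in 1y_swim and 484 to 814 CPM in 3y_swim, so that the groups did not overlap, and none of the 94 had 0 counts in all 10 libraries. The general leukocyte gene ptprc, which encodes CD45, stood at 5.98, 6.25, 6.41, 5.11 and 5.24 CPM in 1y_swim and 14.5, 7.45, 11.7, 12.2 and 11.1 CPM in 3y_swim. All 3-year libraries were above all 1-year libraries (1.97-fold, 0.97 ± 0.21, edgeR adjusted p = 0.00403).

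The MHC class II gene mhc2daa, whose product presents antigen, stood at 12.2, 12.8, 16.8, 11.9 and 7.84 CPM in 1y_swim and at 105, 43.6, 46.4, 40.5 and 113 CPM in 3y_swim. The libraries 3y_swim 1 and 5 were highest, and all 3-year libraries were well above the 1-year libraries (5.66-fold, 2.50 ± 0.41, edgeR adjusted p = 0.000647). The invariant chain gene cd74a, named after its value was seen, stood at 80.0, 80.1, 126, 74.5 and 53.1 CPM in 1y_swim and 233, 156, 200, 199 and 200 CPM in 3y_swim, again without overlap (1.26 ± 0.29, edgeR adjusted p = 0.00563). A second class II gene, mhc2dab, was higher by 3.91 ± 1.17 but did not pass in 10 of 31 alternatives. The cathepsin gene ctss2.2, of the protease family that trims the invariant chain, was higher by 1.54 ± 0.30. The log2 changes were 1.56 ± 0.28 for the macrophage gene MPEG1 (ENSDARG00000055290), 2.09 ± 0.58 for the immunoglobulin gene ighm and 3.22 ± 0.92 for the T-cell gene cd8a, which passed and were named after their values were seen. The level of cd8a was under 1 CPM in every exercised library, it did not pass without 1y_swim 2 and 3 or without 1y_swim 2 and 4, and ighm did not pass without 3y_swim 1 and 3.

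Epidermis markers were higher in 3y_swim 1 and 3, the libraries named above. Of 43 tested 3 were called higher, close to the 7.59% over all genes and 0 to 17 over the alternatives (median 1.88), and the median was -0.05 without these libraries. Leukocyte markers kept a median of 0.96 without them, with 21 genes called higher, and a median of 1.25 with 18 called without 1y_swim 2 and 4. The genes ptprc, mhc2daa and cd74a passed in all 31 alternatives.

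**Figure D3:**
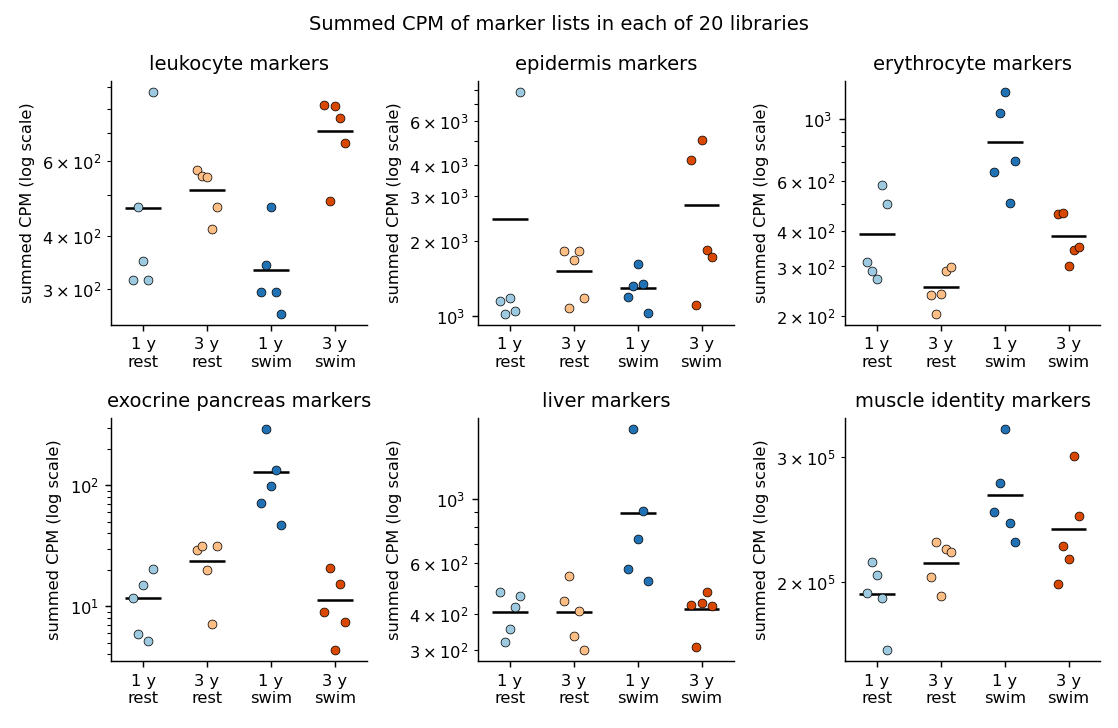
Summed CPM (log axis) of marker lists for other tissues and for muscle in the 20 libraries, with 1 point per library and a bar at the mean of 5. Leukocyte markers reach 262 to 468 CPM in 1y_swim and 484 to 814 CPM in 3y_swim, exocrine pancreas markers are highest in 1y_swim, and epidermis markers set 3y_swim 1 and 3 and 1 resting library of 1-year-old fish apart.

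Interferon and antiviral genes were also mostly positive. Of 59 tested 19 were called higher and 2 lower (median 1.05). The fish antiviral kinase gene pkz, named after its value was seen, stood at 0.485, 0.887, 0.945, 0.990 and 0.816 CPM in 1y_swim and 2.67, 2.76, 3.99, 14.5 and 2.75 CPM in 3y_swim, with 3y_swim 4 far above the rest and no overlap of the groups (2.69 ± 0.74, edgeR adjusted p = 0.0171). Without 3y_swim 4 the list had 9 genes called higher, with a median of 0.78, and pkz did not pass. It had 12 called without 1y_swim 1, 6 without 1y_swim 2 and 4, and 31 without 1y_control 5. The 2 genes called lower were mavs, the mitochondrial adaptor of RNA sensing (-0.95 ± 0.18), and ifi30b (-2.61 ± 0.58), the latter named after its value was seen.

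The complement list divided by members. Of 27 complement and acute phase genes tested 7 were called higher and 11 lower (median -0.76). The higher ones began with c1s.1 (1.83 ± 0.26), a protease of the classical pathway, and c4, which it cleaves. For c4 the libraries of 1y_swim held 17.8, 36.2, 18.6, 26.6 and 43.4 CPM and those of 3y_swim 113, 82.4, 87.9, 155 and 100 CPM. The groups were apart (3.77-fold, 1.92 ± 0.30, edgeR adjusted p = 0.000526). The properdin gene cfp, which stabilizes the alternative pathway convertase, was higher by 1.66 ± 0.25. The terminal component gene c6.1, named after its value was seen, stood at 5.49, 4.73, 7.32, 5.54 and 7.37 CPM in 1y_swim and 14.7, 8.99, 14.3, 61.1 and 31.9 CPM in 3y_swim, higher in every 3-year library (2.1 ± 0.45, edgeR adjusted p = 0.00363).

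The 11 lower complement and acute phase genes included c9 and the haemopexin gene hpxa, which liver makes in quantity. The level of c9, named after its value was seen, was 1.99, 8.47, 0.657, 13.2 and 2.35 CPM in 1y_swim and 0.251, 0.696, 1.17, 0.139 and 0.189 CPM in 3y_swim. It was highest in 1y_swim 2 and 4, and 1y_swim 3 lay within the 3-year range (-3.45 ± 0.97, edgeR adjusted p = 0.0190, not passing without 1y_swim 4). The list had 6 lower genes without 1y_swim 4, 3 without 3y_swim 1 and 3, and 1 lower and 6 higher without 1y_swim 2 and 4.

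The lists of digestive gland markers had the most negative medians. Of 23 exocrine pancreas markers tested, from 31 in the list, 18 were called lower (median -3.79), and of 50 liver markers tested, from 65, 39 were called lower (median -3.81); none of either was higher. The trypsin gene prss1 stood at 10.4, 53, 15.4, 23.3 and 5.93 CPM in 1y_swim and at 1.09, 2.53, 0.382, 0.750 and 0.756 CPM in 3y_swim. All 1-year libraries were above all 3-year libraries, led by 1y_swim 2 (19.4-fold, -4.28 ± 0.72, edgeR adjusted p = 0.000785). Trypsin genes are near copies that may share reads, so their separate values are uncertain.

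The liver fatty acid binding protein gene fabp10a stood at 28.6, 154, 12.2, 33.5 and 7.71 CPM in 1y_swim and 3.01, 4.59, 3.40, 0.306 and 1.11 CPM in 3y_swim, again highest in 1y_swim 2 (-4.25 ± 0.93, edgeR adjusted p = 0.00457). Summed liver markers ran from 522 to 1758 CPM in 1y_swim and from 306 to 477 CPM in 3y_swim. In resting fish, pancreas markers summed to 5.20 to 20.2 CPM at 1 year and 7.09 to 31.5 CPM at 3 years. None of the 23 was called between those ages, against 1.19% of all genes, and 21 had positive log2 changes (median 1.16). None of the 50 liver markers was called in resting fish either, and 48 had negative log2 changes (median -0.95). None of the pancreas list had 0 counts in all 10 exercised libraries. PTF1A had 0 throughout 3y_swim alone, and 1 other member had 0 throughout 1y_swim alone. The part of these tissues in the results on other genes was not tested. Without 1y_swim 2 and 4, 15 pancreas and 9 liver genes were called lower, with medians of -3.15 and -2.38.

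Clock genes differed with age in exercised fish and, for most of the named ones, in resting fish too. Of 45 tested 15 were called lower and 5 higher (median -0.18), and in resting fish 11 were lower and 4 higher. The repressor gene nfil3-5, related to a factor that opposes the D-box activators, stood at 34.3, 23.7, 10.6, 13.3 and 20.7 CPM in 1y_swim and 193, 161, 62.6, 162 and 79.7 CPM in 3y_swim. There was no overlap (6.41-fold, 2.68 ± 0.46, edgeR adjusted p = 0.000798), and the change in resting fish was 2.86 ± 0.46. The nuclear receptor gene rorcb, named after its value was seen, stood at 16.2, 4.70, 5.67, 6.50 and 5.86 CPM in 1y_swim and 51.6, 68.1, 34.7, 52.4 and 13.4 CPM in 3y_swim. The highest 1-year library passed the lowest 3-year library, and the change was 2.50 ± 0.42 in exercised fish (edgeR adjusted p = 0.000715) and 3.15 ± 0.43 in resting fish.

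CRY1 (ENSDARG00000045768), a cryptochrome repressor, stood at 32.4, 34.3, 37.2, 35.6 and 37.2 CPM in 1y_swim and 21.0, 20.0, 24.4, 21.6 and 25.7 CPM in 3y_swim, a small difference with tight groups (1.57-fold, -0.65 ± 0.11, edgeR adjusted p = 0.000649). In resting fish it was -0.56 ± 0.11. The light-responsive period gene PER2 stood at 25.6, 27.9, 24.2, 19.3 and 24.4 CPM in 1y_swim and 14.9, 11.2, 12.7, 6.56 and 14.1 CPM in 3y_swim, with no overlap (-1.03 ± 0.25, edgeR adjusted p = 0.00816), and in resting fish the change was -1.69 ± 0.25. PER3 and the repressor NR1D1 had changes of 0.33 ± 0.41 and 0.37 ± 0.34 in exercised fish that did not pass, and of -1.87 ± 0.43 and -1.66 ± 0.34 in resting fish that did. The difference of the age effects did not pass for either (edgeR adjusted p = 0.104 and 0.0796). The time of sampling is not given, and its part in these values was not tested. With library totals 5 clock genes were called lower and the list median was 0.08, without 1y_swim 2 the number was 9 and without 3y_swim 3 it was 8; PER2 did not pass with library totals.

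**Figure D4:**
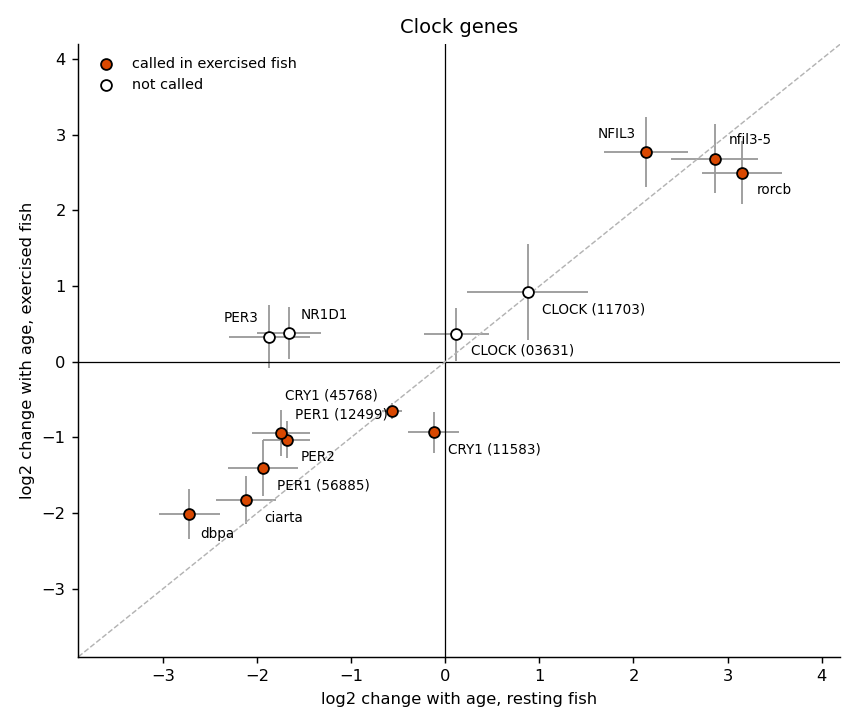
Log2 change between 3 years and 1 year of the named clock genes in resting fish (horizontal) and exercised fish (vertical), with standard errors from the fit; filled points were called in exercised fish, the dashed line marks equal change, and numbers in brackets are the last digits of the gene identifier where genes share a symbol. Most named genes lie near the dashed line, such as rorcb at 3.15 and 2.50, while PER3 and NR1D1 are negative in resting fish alone.

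Polyamine genes included AMD1, which shared the smallest adjusted p of the comparison with HSPA9 and TIMM50. Polyamines are small cations made from ornithine and S-adenosylmethionine that bind RNA and support growth. AMD1, the decarboxylase that supplies the aminopropyl group, stood at 54.8, 70.32, 61.6, 51.7 and 70.34 CPM in 1y_swim and 21.6, 18.9, 22.6, 18.9 and 24.5 CPM in 3y_swim. The groups were far apart (2.90-fold, -1.53 ± 0.15, edgeR adjusted p = 3.49e-05). The spermine synthase gene SMS was lower by 1.17 ± 0.21. The antizyme gene oaz2b, whose product inhibits ornithine decarboxylase, stood at 23.8, 34.2, 27.2, 37.0 and 28.5 CPM in 1y_swim and 1.42, 4.89, 2.08, 1.17 and 4.62 CPM in 3y_swim, a wide separation (10.6-fold, -3.41 ± 0.52, edgeR adjusted p = 0.000420), and was called lower in resting fish as well (-2.26 ± 0.50). Of the 24 polyamine genes tested 10 were called lower and none higher (median -0.36), 5 with library totals, 5 without 3y_swim 3 and 6 without 1y_swim 2, 3y_swim 1 or 3y_swim 4. ODC1, ornithine decarboxylase itself, had a change of 0.80 ± 0.63 that did not pass (edgeR adjusted p = 0.410).

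Of 48 hypoxia response genes 16 were called lower and 1 higher (median -0.40), with 7 called lower without 3y_swim 1 and 3 and 9 without 1y_swim 2 and 3. MXI1, a MAX-binding repressor and target of hypoxia-inducible factors, stood at 82.0, 148, 219, 125 and 157 CPM in 1y_swim and 23.6, 24.7, 20.2, 40.2 and 56.8 CPM in 3y_swim. The groups were apart (4.42-fold, -2.14 ± 0.36, edgeR adjusted p = 0.000709). EPAS1 (ENSDARG00000057671), a hypoxia-inducible factor subunit, and the transferrin receptor gene tfr1b, which takes up iron, were lower by 1.24 ± 0.23 and 1.32 ± 0.16. DDIT4, which restrains mTOR under stress and was named after its value was seen, stood at 31.4, 187, 208, 62.8 and 91.9 CPM in 1y_swim and 23.3, 19.9, 36, 13.6 and 40.6 CPM in 3y_swim. It varied widely at 1 year, and 1y_swim 1 lay within the 3-year range (-2.12 ± 0.59, edgeR adjusted p = 0.0177). It did not pass with voom, without 3y_swim 1 and 3, without 1y_swim 2 and 3 or without 1y_swim 2 and 4.

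Contractile genes were called at rates near or below those over all genes, 7.59% higher and 10.1% lower. None of the 17 muscle identity genes tested was called in either direction (median -0.18). Of 45 fast fibre sarcomere genes 4 were higher and 1 lower (median 0.06). Of 25 slow fibre sarcomere genes 1 was higher and 3 lower (median -0.13), and of 19 myosin heavy chain genes 1 was higher and 2 lower (median 0.53). The fast myosin heavy chain gene myhz2 stood at 287, 222, 204, 253 and 211 CPM in 1y_swim and 249, 48.5, 294, 303 and 377 CPM in 3y_swim. The groups overlapped and the change of 0.11 ± 0.35 did not pass (edgeR adjusted p = 0.860). In resting fish myhz2 was lower at 3 years by 2.21 ± 0.37, but the interaction test called none of the 19 myosin heavy chain genes. Myoglobin, mb, the oxygen store of slow muscle, stood at 122, 240, 178, 209 and 570 CPM in 1y_swim and 51.2, 61.0, 99.4, 79.3 and 45.1 CPM in 3y_swim, with 1y_swim 5 far above its group and no overlap (3.92-fold, -1.97 ± 0.51, edgeR adjusted p = 0.0127). It did not pass without 3y_swim 1 and 3.

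Genes under the symbol TNNI2, the fast troponin inhibitory subunit, went both ways. Among them ENSDARG00000029069 stood at 607, 1076, 1702, 441 and 1141 CPM in 1y_swim and 210, 261, 376, 224 and 135 CPM in 3y_swim, lower without overlap (-2.04 ± 0.58, edgeR adjusted p = 0.0210). Its far less abundant copy ENSDARG00000045592, named after its value was seen, stood at 0.256, 0.148, 0.616, 0.214 and 0.124 CPM in 1y_swim and 7.08, 0.199, 8.16, 4.61 and 2.81 CPM in 3y_swim, higher in 4 of 5 libraries (4.11 ± 1.00, edgeR adjusted p = 0.00842). Another entry, ENSDARG00000035958, was also called higher, with log2 changes of 1.91 to 3.33 over the 31 alternatives, and lost its call in 9 of them. The copies named here may share reads, so their separate values are uncertain, and none of them passed without 3y_swim 1 and 3.

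METTL21C (ENSDARG00000078878), a muscle protein methyltransferase, stood at 2.33, 2.48, 1.03, 2.76 and 1.51 CPM in 1y_swim and 15.4, 19.9, 6.46, 31.9 and 5.10 CPM in 3y_swim (7.77-fold, 2.96 ± 0.52, edgeR adjusted p = 0.000981). Every 3-year library was above every 1-year library, although the 3-year values spread widely. CISH, an inhibitor of cytokine and growth hormone signalling, stood at 4.57, 5.21, 2.26, 1.55 and 7.14 CPM in 1y_swim and 27.9, 18.1, 24.4, 35.6 and 16.2 CPM in 3y_swim (5.87-fold, 2.55 ± 0.39, edgeR adjusted p = 0.000420). The growth factor gene igf2b stood at 4.68, 3.85, 2.47, 5.49 and 4.30 CPM in 1y_swim and 13.8, 7.18, 12.1, 8.81 and 10.9 CPM in 3y_swim, again with no overlap (1.34 ± 0.22, edgeR adjusted p = 0.000624).

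PDGFRA, the receptor that marks connective tissue progenitors in muscle, stood at 3.53, 3.25, 2.84, 5.78 and 4.18 CPM in 1y_swim and 16.9, 8.92, 17.9, 14.7 and 11.8 CPM in 3y_swim, with all 3-year libraries higher (3.58-fold, 1.84 ± 0.25, edgeR adjusted p = 0.000197). Of 30 smooth muscle and fibroblast markers tested 5 were called higher and 2 lower (median 0.32), against 7.59% and 10.1% over all genes. Their summed level overlapped between the ages, with 871.8 to 1485 CPM in 1y_swim and 786.3 to 1355 CPM in 3y_swim. The differentiation factor MYOG, named after its value was seen, stood at 1.58, 2.29, 2.96, 1.1 and 1.71 CPM in 1y_swim and 4.53, 3.83, 4.34, 8.98 and 3.56 CPM in 3y_swim. Its groups were also apart (1.4 ± 0.38, edgeR adjusted p = 0.0157), it did not pass without 3y_swim 4 or without 1y_swim 2 and 4, and its change in resting fish was nearly the same at 1.48 ± 0.37, without passing. Of 114 extracellular matrix genes 6 were higher and 13 lower, close to the shares over all genes, and the collagen genes col1a1a and COL1A2 had changes of -1.27 ± 0.48 and -1.1 ± 0.44 that did not pass.

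The interaction test asked whether the age difference was the same with and without exercise. It called 57 genes, 0.335% of all tested, with 9 positive (0.0529%) and 48 negative (0.282%) values (2470 at an unadjusted p under 0.05), and DESeq2 called 407. Of the 57, 13 were exocrine pancreas markers and 10 belonged to mitochondrial chaperones, proteases and import. The excess of negative values depended on the scaling. The count was 4, with 3 positive and 1 negative, both with library totals and with muscle markers as library size. It fell to between 3 and 9 when 1 of 1y_control 1, 2 or 3, 1y_swim 2 or 5, 3y_control 3 or 5, or 3y_swim 1, 3 or 5 was left out, to between 22 and 30 without 1y_control 5, 1y_swim 3 or 4, 3y_control 1 or 3y_swim 4, and it rose to 163 without 1y_control 4. The calls made in all 26 alternatives were those of the exocrine pancreas marker ctrl (-5.87) and of si:ch73-141c7.1 (2.66). TIMM50 was lower with age by 1.16 more in exercised than in resting fish on the log2 scale (edgeR adjusted p = 0.00785) and kept this call in 24 of 26 alternatives, and HSPD1 (-1.20, edgeR adjusted p = 0.00885) in 23. AMD1, HSPA9, NDUFV1, MT-ND1 and MRPL21 had differences of -1.12 (adjusted p = 0.0308), -0.93 (0.0308), -1.03 (0.0457), -1.13 (0.0457) and -0.94 (0.0442). These calls were made in 11, 10, 4, 6 and 6 of the 26 alternatives, in the same order, so most alternatives lost each of them.

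Of the 3010 genes called in exercised fish, 116 were called in the same direction in resting fish, with 58 higher and 58 lower in both. These are 3.85% of the calls in exercised fish and 57.1% of the 203 calls in resting fish. The comparisons share no library, but they come from the same fit. They share its filter, scaling and estimate of spread for each gene, so they are not fully independent. Only 2 genes were called in opposite directions. GPI (ENSDARG00000103826), glucose-6-phosphate isomerase of glycolysis, named after its value was seen, stood at 674, 675, 706, 829 and 724 CPM in 1y_swim and 500, 283, 221, 596 and 375 CPM in 3y_swim, lower in each 3-year library (-0.87 ± 0.26, edgeR adjusted p = 0.0274). In resting fish it was higher at 3 years, with 785 ± 249 CPM against 355 ± 100 CPM (SD, n = 5) (log2 change 1.14 ± 0.26, edgeR adjusted p = 0.0412), and the difference of the age effects was -2.01 (edgeR adjusted p = 0.0297, called in 13 of 26 alternatives). The call in exercised fish did not pass in 10 of 31 alternatives. The other, also named after its values were seen, was si:ch73-141c7.1, higher by 1.43 in exercised and lower by 1.23 in resting fish.

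PDK2 (ENSDARG00000020876), the kinase that shuts pyruvate dehydrogenase and so spares glucose, was lower in exercised fish at 3 years. It stood at 35.5, 189, 129, 192 and 234 CPM in 1y_swim and 95.2, 71.8, 52.6, 65.9 and 79.9 CPM in 3y_swim, where 1y_swim 1 was below all libraries of either group. The change was -1.09 ± 0.33 (edgeR adjusted p = 0.0266) and failed to pass in 12 of 31 alternatives. The change in resting fish, 1.11 ± 0.33, did not pass (edgeR adjusted p = 0.104). The difference of the age effects was -2.20 (edgeR adjusted p = 0.0457), a call made in 4 of 26 alternatives.

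**Figure D5:**
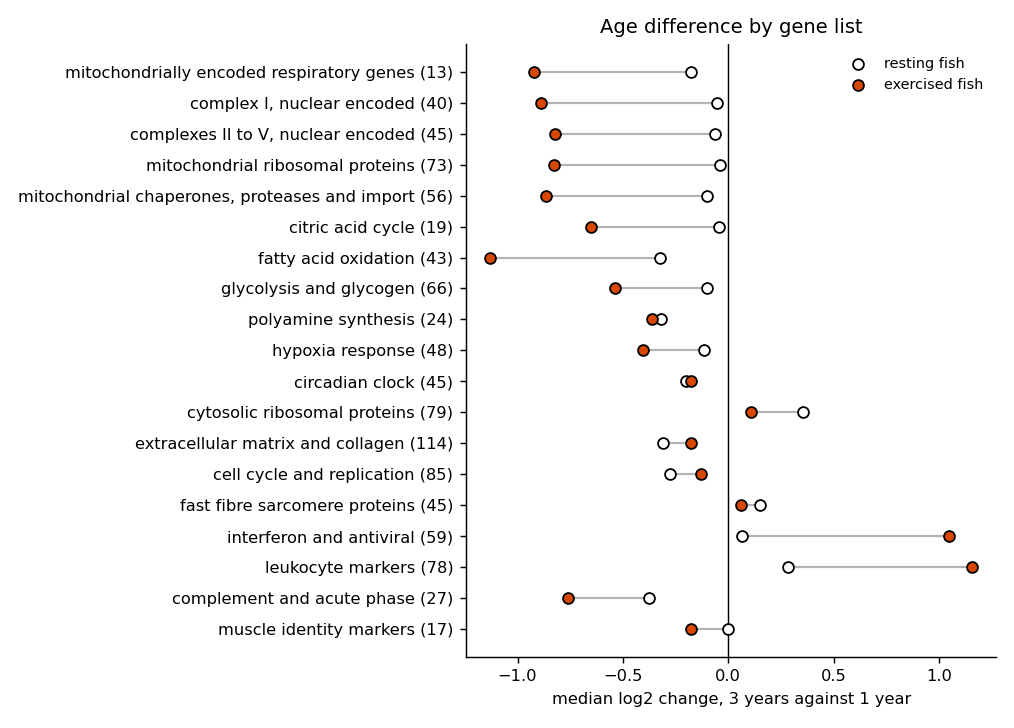
Median log2 change between 3 years and 1 year over the tested members of each list (number in brackets), in resting fish (open) and exercised fish (filled), joined by a grey line. From mitochondrially encoded genes to the citric acid cycle the medians are -0.18 to -0.04 in resting fish and -0.92 to -0.65 in exercised fish, while clock and polyamine genes have nearly equal medians in both. Equal medians do not mean equal changes gene by gene. Of 24 polyamine genes 18 had the more negative change in exercised fish (median difference -0.32).

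For the gene lists as wholes the resting medians were -0.18 for mitochondrially encoded genes, -0.05 for complex I, -0.04 for mitochondrial ribosomal proteins and -0.33 for fatty acid oxidation, with no member of these lists called in resting fish. Over all genes only 0.658% were called higher and 0.535% lower in resting fish, so few or no calls in lists of this size say little. Leukocyte markers had a resting median of 0.28 and interferon genes of 0.06, with no leukocyte member called and 1 interferon member lower. The resting library 1y_control 5 stood apart in both lists, with a summed level of 874.8 CPM for leukocyte markers against 314.5 to 469.2 CPM in the other 4 libraries of its group, and 1348 CPM for interferon genes against 488.9 to 728.2 CPM. Without it the resting medians were 0.485 for leukocyte markers, with 1 member called higher, and 0.50 for interferon genes, so the resting medians of these lists depend on this library. No list was tested as a whole for a difference between exercised and resting fish. Among single members the interaction test called 1 of the 13 mitochondrially encoded genes, 2 of 40 in complex I and 2 of 73 mitochondrial ribosomal protein genes. It called 10 of 56 genes for mitochondrial chaperones, proteases and import, and none of the leukocyte, interferon or clock genes. The share over all genes was 0.335%, and the total of 57 fell to 4 with library totals.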

How the data were processed

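Total RNA of muscle was sequenced from TruSeq RNA v2 libraries. Per the submitters' processing notes, bcl2fastq 1.8.4, STAR 2.4.1d and featureCounts 1.4.6-p4 were used with GRCz10; the strand setting is not given in the sources used here. The authors deposited raw counts per gene, which were used as they stand; a deposited RPKM table was not used. Genes were filtered by edgeR's filterByExpr and scaled by TMM, and all 20 libraries entered 1 quasi-likelihood fit (edgeR 4.0.16, R 4.3.3) with contrasts for age among exercised fish, age among resting fish and their difference, with Benjamini-Hochberg adjustment over the 17025 genes tested (99.955% of counts). CPM values use the TMM factors. The procedure was tested on simulated data. These held none of the tissue differences between libraries seen here, so that test does not bear on them. Totals of the exercised libraries were 32025422 to 44639439 counts, and replicates differed by more than sampling noise (chi-square per degree of freedom 38.75 to 221.5 over 40 pairs). Genes named by rule were the 12 highest and 12 lowest in log2 change and up to 3 per list. They had a mean log2 CPM of at least 2 and non-overlapping exercised groups. The 5 genes each way for the interaction had the same minimum level but no overlap condition. Neither condition was set for mitochondrially encoded genes, a fixed panel and genes named after their values were seen. Members and lists were chosen with earlier results of these data known. Of 2341 list names 1947 were matched and the rest left out. Alternatives were RLE factors, library totals, other filters, DESeq2 1.42.0, limma-voom (limma 3.58.1), the exercised libraries alone and left-out libraries. Some genes that met the naming rule are not reported here.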

Additional observations from a re-analysis of the deposited data

Results flagged for a closer look

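Among 92 groups of 5 libraries examined, 9 held a library that stood apart by Dixon's criterion, where chance gives about 1 in 20 groups, or 4.6. That rate assumes independent groups of normally distributed values. These groups share libraries and their genes were chosen from these data, so 4.6 is only a rough guide. In 3y_swim 4 the values were 14.5 CPM for pkz and 8.98 CPM for MYOG, both above the rest of the group. In 1y_swim 3 they were 22.3 CPM for TIMM50, 11.5 CPM for COX4I2 and 0.616 CPM for TNNI2 (ENSDARG00000045592), also high. The value of rorcb in 1y_swim 1 was 16.2 CPM, that of mb in 1y_swim 5 was 570 CPM and that of fabp10a in 1y_swim 2 was 154.5 CPM, all high. MRPL21 in 3y_swim 5 was low at 6.37 CPM.

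The age difference differed between exercised and resting fish for 57 genes by the interaction test. Among those named, the difference of the log2 changes was -5.46 for prss1, -2.20 for PDK2 (ENSDARG00000020876), -2.01 for GPI (ENSDARG00000103826), -1.16 for TIMM50, -1.13 for MT-ND1, -1.125 for AMD1, -1.03 for NDUFV1, -0.94 for MRPL21 and -0.925 for HSPA9. It was also -1.25 for cycsb, -1.21 for HSPE1, -1.20 for HSPD1 and -0.94 for NDUFS8. For si:ch73-141c7.1 it was positive, at 2.66.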

How the results depend on the processing

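Of 181 named genes called between the ages in exercised fish, 110 passed in all 31 alternatives, 71 missed the threshold in at least 1 and 0 changed direction. Many were named because their exercised groups did not overlap, so leaving out libraries could hardly reverse them. The absence of reversals therefore adds no support. Counts of list members moved more. Of 33 lists with at least 5 members called in one direction, only 6 kept that count within 1.5 times in all alternatives. The 3010 calls became 1314 without 3y_swim 1 and 3, the exercised libraries with the most epidermis RNA, and 1724 without 1y_swim 2 and 4, an alternative chosen after seeing the data. The resting library 1y_control 5 had a higher sum of epidermis markers, at 7812 CPM, and 3278 genes were called without it. Leaving out 1 library gave 2198 to 3278. With library totals 2883 genes were higher and 931 lower against 1293 and 1717, with a median over all genes of 0.29 against 0.035, and with muscle markers as library size, also chosen after seeing the data, 1784 were higher and 1000 lower, with a median of 0.20. The 203 calls in resting fish became 113 with no filter, 730 with DESeq2 and 56 to 403 with 1 library left out. The 57 interaction calls became 31 with RLE size factors, 4 with library totals, 4 with no filter, 407 with DESeq2, 4 with muscle markers as library size and 3 to 163 with 1 library left out. The cause was not tested. No paired analysis was possible because the labels give no replicate numbers. At this depth and spread the median standard error was 0.278 for the age difference in exercised fish and 0.39 for the interaction, which limits the latter.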

Other observations

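Mitochondrial carriers and redox genes also differed between the ages in exercised fish. Of 45 carrier genes tested 14 were called lower and 5 higher (median log2 change -0.53), and of 60 redox and glutathione genes 16 were lower and 1 higher (median -0.45), against 10.1% lower and 7.59% higher over all genes. SLC25A12, which exchanges aspartate and glutamate across the inner membrane, stood at 464, 422, 467, 489 and 512 CPM in 1y_swim and 202, 254, 178, 173 and 205 CPM in 3y_swim. The groups were far apart (-1.22 ± 0.17, edgeR adjusted p = 0.000197). SOD2, the superoxide dismutase of the mitochondrial matrix, named after its value was seen, was lower by 0.95 ± 0.20, and GLRX5, which serves iron-sulphur cluster assembly, by 1.05 ± 0.18. Over the alternatives 5 to 18 redox genes and 11 to 18 carrier genes were called lower.

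Of 67 cytosolic and endoplasmic reticulum chaperone genes 11 were called lower and none higher (median -0.23), a count that ran from 4 to 16 over the alternatives. The small heat shock protein gene hspb6 was lower by 2.03 ± 0.29 and UNC45B, a chaperone of myosin, by 1.19 ± 0.27, the latter not passing without 3y_swim 1 and 3. Of 47 genes of cholesterol and fatty acid synthesis 11 were lower and none higher (median -0.46, 5 to 13 over the alternatives), among them HMGCS1 of the mevalonate pathway (-1.13 ± 0.23). On the higher side were 6 of 32 satellite cell and muscle regulatory genes (median 0.19, 2 to 9 over the alternatives), including six4b (1.17 ± 0.26), and the cytokine signalling inhibitor SOCS3 (1.67 ± 0.36).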
